A study of Arabidopsis thaliana with 72 samples.

Results

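The nuclear genes for the light-harvesting antenna, the photosystems and the electron carriers of the thylakoid were followed through 9 tissues of *Arabidopsis thaliana*, as transcript levels and as pseudouridine (Ψ) sites on their mRNA. The set held 42 of the 32833 genes of the expression table and was chosen by gene identifier from the known role of the proteins, a rule that takes in no measured value. It comprised 14 antenna genes, 12 genes of photosystem I, 10 of photosystem II and 6 of the carriers and the ATP synthase. In all, 147 of the 8512 listed Ψ sites lay inside these genes on the coding strand, and no further site lay on the opposite strand.

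All plants were wild-type Col-0, with no treatment, transgene or mutant among the groups. Seedling, shoot and root came from plants on medium plates under long days. The other tissues came from plants moved to soil, for which the paper states no light regime, so growth medium and tissue cannot be told apart between these groups. Whole seedling was taken at 7 days, shoot and root at 14 days and rosettaLeaf (rosette leaf) at 30 days, caulineLeaf, flower, stem and silique after flowering, and seed when mature and dry. The series held 56 bisulfite-treated and 16 input libraries of poly(A)+ RNA. Expression came as 16 columns of TPM (a length-adjusted share of all transcripts), 2 per tissue and 1 each for rosettaLeaf and seed, and the Ψ fraction came as 1 pooled value per tissue.

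Light-harvesting proteins (LHC) bind chlorophyll and pass excitation energy to the reaction centres. LHCA proteins serve photosystem I and LHCB proteins serve photosystem II, which splits water with the help of the lumenal PSBO, PSBP and PSBQ proteins. Electrons then run through the cytochrome b6f complex and plastocyanin to photosystem I and on to ferredoxin, while the ATP synthase uses the proton gradient. The core reaction-centre proteins are encoded in the plastid, whereas the genes described here are nuclear and their products are imported.

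The marker genes of flower, root, stem and seed were highest in the tissue of their label. Floral AP3 (a petal and stamen identity factor) lay between 93.7 and 146 TPM in flower and silique and at no more than 0.797 TPM elsewhere. Floral PI read 282 and 275 TPM in flower and only 4.56 and 3.83 in silique, and AG 32.5 and 29.6 and 18.3 and 17.6. The leaf genes RBCS1A and RCA were highest in rosettaLeaf, at 4298 and 3826 TPM. RBCS1A did not part caulineLeaf (1894 and 1958 TPM) from flower (1946 and 2154), whereas RCA did (1839 and 1980 against 1074 and 1131). The nitrate transporter NRT2.1 stood at 87.4 and 81.2 TPM in root and at no more than 3.02 TPM elsewhere, and the secondary-wall cellulose synthases CESA4, CESA7 and CESA8 were highest in stem, between 392 and 504 TPM. The seed-storage genes CRA1 and CRU3 and the oil-body gene OLEO1 lay between 5027 and 6827 TPM in seed. They were also read at 17.0 to 22.2 TPM in root replicate 1 and at 75.6 to 83.5 TPM in root replicate 2. Root replicate 2 was also the higher of the root columns for 40 of the 42 photosynthesis genes, by a median of 1.21-fold, and the part of the seed transcripts in this was not tested.

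All 42 genes were highest in rosettaLeaf, and all were lowest in root (22 genes) or seed (20 genes). Together they took 9.95% of all TPM in rosettaLeaf, 7.19% in seedling, 6.99% in caulineLeaf, 6.35% in stem, 5.31% in shoot, 4.39% in flower and 4.32% in silique. The share was 0.121% and 0.145% in the root columns and 0.136% in seed. In these bulk samples, fewer green cells and less of the RNA per cell cannot be told apart. The fold between the highest and the lowest tissue ranged from 32.1 (FD2) to 230.2 (PETE1), with a median of 104. Within the 7 tissues other than root and seed it ranged only from 1.96 (PSBR) to 4.41 (ATPD), with a median of 2.47. In the moderated F test of limma over all tissues, all 42 genes differed at an adjusted p under 0.05. The background in that test was 99.4% of all genes tested, and nothing is read from the count. Nothing in the labels says whether replicate columns came from separate plants, so the p-values measure only the spread between these columns.

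**Figure D1:**
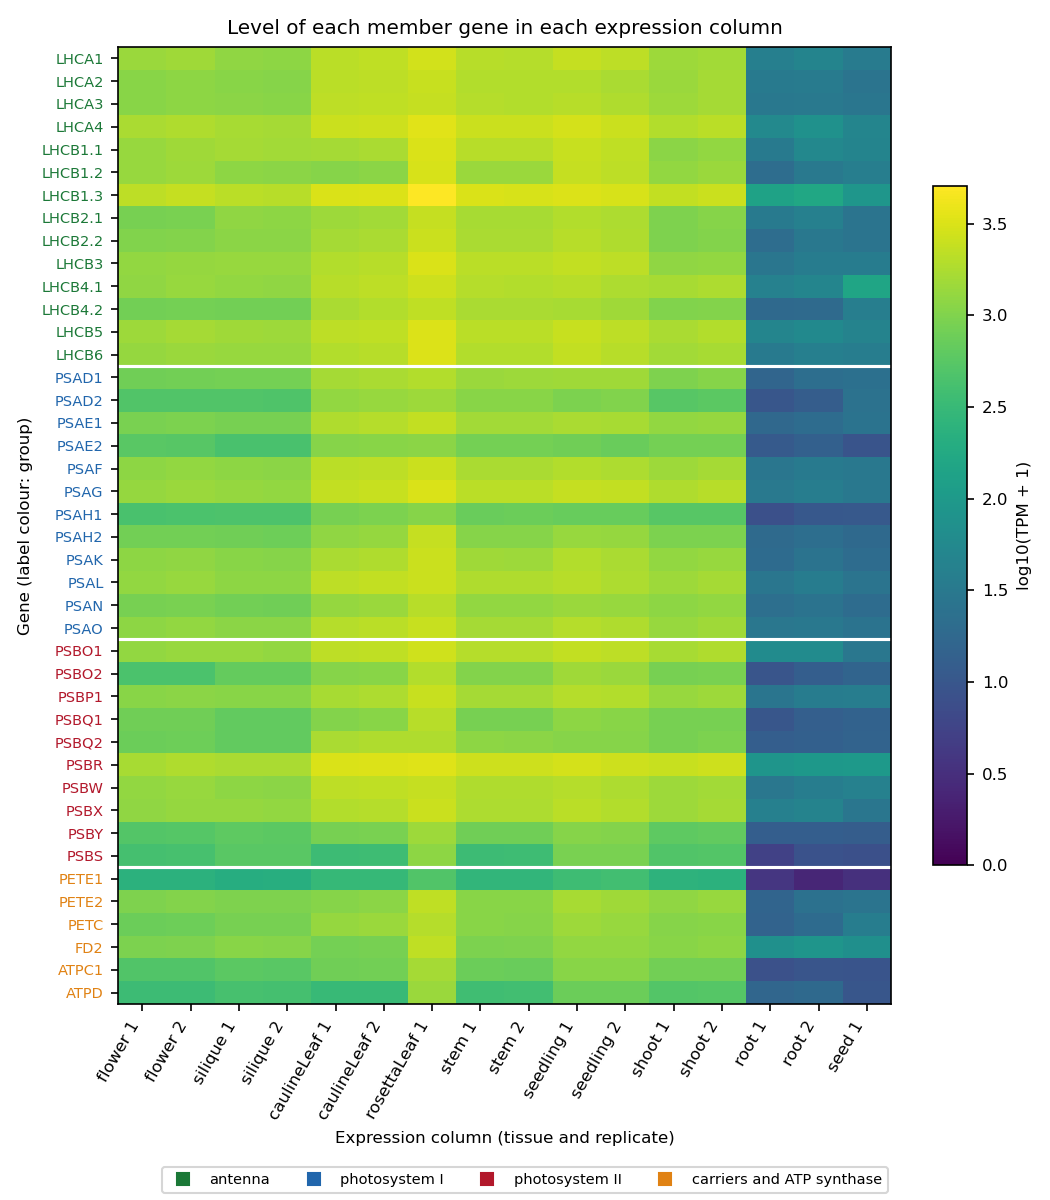
Level of each of the 42 genes (rows, ordered by group) in each of the 16 expression columns, as log10(TPM + 1) on the colour scale. The 2 root columns and the seed column are dark for every gene, and the rosettaLeaf column is the brightest in each row.

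Among the antenna genes, LHCB1.3 (AT1G29930, chr1:10477885-10479114, plus strand, TAIR10), which encodes a major trimeric antenna protein of photosystem II, was the most abundant transcript of the whole set. It stood at 2160.3 and 2391 TPM in flower, 2074 and 2005 in silique, 3181 and 3282 in caulineLeaf, 5093 in rosettaLeaf, 3098 and 3065 in stem, 3226 and 2994 in seedling, 2312 and 2606 in shoot, 136 and 159 in root and 88.6 in seed. It ranked at the top of the 42 in 7 of the 9 tissues, the exceptions being shoot, where PSBR was higher, and seed, where LHCB4.1 and PSBR were. The neighbouring copies LHCB1.1 (AT1G29920) and LHCB1.2 (AT1G29910) lie within the same stretch of chromosome 1. Their coding sequences are between 95.6% and 96.4% identical among the 3 genes, but at most 3.27% of the 100-base windows (the read length) of a transcript recurred in another copy. How the authors divided reads among these copies is not given in the sources used here, and the levels of single LHCB1 genes are to that extent uncertain.

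The order of the tissues differed among the LHCB1 copies. LHCB1.2 was at its lowest of the 7 tissues other than root and seed, called the green tissues here, in caulineLeaf, at 1096 and 1161 TPM, against 1361 and 1472 in flower and 2992 in rosettaLeaf. LHCB1.1 was lowest in shoot, at 1171 and 1279.6 TPM. Among the antenna genes of photosystem I, LHCA4 stood at 2544 and 2673 TPM in caulineLeaf and 3528 in rosettaLeaf, and LHCA1, LHCA2 and LHCA3 lay between 1107 and 2799 TPM in the tissue means of the 7 green tissues. The minor antenna proteins of photosystem II are CP29 (LHCB4.1, LHCB4.2), CP26 (LHCB5) and CP24 (LHCB6). LHCB5 read 3258 and LHCB6 3291 TPM in rosettaLeaf. LHCB4.1 (AT5G01530) was the highest of all 42 genes in seed at 151 TPM, above its 41.7 and 47.1 TPM in root. The other antenna genes lay between 25.3 and 88.6 TPM in seed.

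Among the photosystem I genes, PSAG, a membrane subunit, was the highest of them at 3114 TPM in rosettaLeaf and 30.4 and 36.9 in root. PSAH1 was the lowest in rosettaLeaf at 1074 TPM, with 7.04 and 9.49 in root and 9.81 in seed. The group held 28.9% of the transcripts of the set in caulineLeaf and 25.9% in rosettaLeaf. In root and seed its part was 19.2% and 18.8%, while that of the antenna was 47.3% and 48.7%, against 39.7% in shoot and 44.1% in stem, the lowest and highest of the green tissues.

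In photosystem II, PSBR (AT1G79040), a small subunit of the water-splitting side, ranked in the top 3 of the 42 genes in every tissue. Its values were 3394 TPM in rosettaLeaf, 2452 and 2680.1 in shoot, 84.5 and 92.7 in root and 97.8 in seed. PSBS (AT1G44575), the sensor of lumen acidity that triggers non-photochemical quenching, was 1 of 4 genes, with LHCB1.2, FD2 and ATPD, whose lowest level among the 7 green tissues was in caulineLeaf. PSBS was lowest of the green tissues in caulineLeaf (348 and 353 TPM) and stem (351 and 359.8 TPM), and stood at 411 and 422 in flower, 582 and 565 in silique, 919.8 and 904 in seedling and 1177 in rosettaLeaf. In root it read 4.17 and 7.62 TPM and in seed 6.92.

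Among the carriers, the main leaf ferredoxin gene FD2 (AT1G60950) had the smallest fold between its highest and lowest tissue. It read 72.5 and 84.6 TPM in root and 69.8 in seed, against 846 and 891 in caulineLeaf and 1115 and 1185 in shoot. It ranked 3 of 42 in root and 4 of 42 in seed, but 38 of 42 in caulineLeaf. PETE1 (AT1G76100), 1 of the 2 plastocyanin genes, was the lowest of the set in all 9 tissues, at 501 TPM in rosettaLeaf, 2.86 and 1.50 in root and 2.21 in seed. ATPD, the delta subunit of the ATP synthase, read 318 and 318 TPM in caulineLeaf, 353 and 352 in flower, 514 and 531 in shoot, 749.8 and 749.7 in seedling and 1402 in rosettaLeaf. The gamma subunit ATPC1 read 809 and 835 TPM in caulineLeaf and 1622 in rosettaLeaf.

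Tissues were compared in 7 pairs with limma on log2(TPM + 1), so that every difference below is on that log2 scale and understates the change of genes near 1 TPM. The pairs share columns, and their values are given side by side only. In root against shoot, which contrasts organs of the same age, all 42 genes fell. The background was 37.6% of the 22517 genes tested called lower and 42% called higher. The median difference of the 42 genes was -5.60, beside 0.05 over all genes tested, and the range ran from -6.53 (ATPC1) to -3.86 (FD2). Every shoot column was above every root column for all 42 genes.

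The ATP synthase gene ATPC1 showed the largest fall, from 816 and 837 TPM in shoot to 7.33 and 8.62 in root, a difference of -6.53 (± 0.0527 SE, adjusted p = 3.45e-16). PSBO2, a copy of the manganese-stabilising protein, went from 889 and 917 to 8.54 and 11.7 TPM, a difference of -6.36 (± 0.096 SE, adjusted p = 3.99e-14). PETE1 went from 251 and 243 to 2.86 and 1.50 TPM, a difference of -6.32 (± 0.137 SE, adjusted p = 8.76e-13). The groups overlapped in the size of their fall: the medians were -5.26 for the antenna, -5.74 for photosystem I, -5.56 for photosystem II and -6.02 for the carriers and the ATP synthase. Within the antenna, LHCB1.3 fell least (-4.05) and LHCB4.2 most (-5.77).

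In seed against silique, all 42 genes fell as well, beside a background of 60.7% lower and 24.5% higher. The median difference was -5.30, beside -0.82 over all genes. TPM is relative to all transcripts of a column, so a rescaling by median ratios was also tried. It moved the median of all genes to -0.15 and that of the 42 genes to -4.35, and all 42 calls were kept. Over all genes, 9077 were then higher and 10448 lower, in place of 5525 and 13663. Seed had 1 column, whose spread was taken from the other tissues.

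The largest falls in seed were those of PSBS, from 582 and 565 TPM in silique to 6.92 in seed (-6.18 ± 0.195 SE, adjusted p = 1.67e-11), of PETE1, from 204 and 208 to 2.21 TPM (-6.01 ± 0.168 SE, adjusted p = 5.47e-12), and of ATPC1, from 584 and 578 to 8.13 TPM (-6.00 ± 0.0646 SE, adjusted p = 1.31e-15). The smallest was that of LHCB4.1 (-3.03 ± 0.0902 SE, adjusted p = 9.46e-12). Its level in seed was 3.41-fold that in root, whereas PSBO1 in seed was at 0.471 of its root level. Of the 42 genes, 22 were higher in seed than in the root mean and 20 were lower. Silique itself holds developing seeds: the seed-storage genes read between 2004 and 2497 TPM there.

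In rosettaLeaf against caulineLeaf, 33 of the 42 genes rose and none fell, beside a background of 28.3% higher and 43.5% lower. RosettaLeaf had 1 column, so its spread was taken from the other tissues and these p-values hold no replicate error of rosettaLeaf itself. The median difference was 0.52, beside -0.18 over all genes. The single rosettaLeaf column was above both caulineLeaf columns for all 42 genes, and under the median-ratio rescaling all 42 rose, with a median of 0.86 beside 0.03 over all genes (8601 higher and 7654 lower, in place of 6366 and 9804). The genes that did not pass the test were LHCA3, PSAD1, PSAD2, PSAE2, PSAH1, PSAL, PSBQ2, PSBR and PSBW, of which 5 belong to photosystem I. All 6 genes of the carriers and the ATP synthase rose.

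The largest rise was that of ATPD, from 318 and 318 to 1402 TPM (2.14 ± 0.0506 SE, adjusted p = 5.2e-12). PSBS rose from 348 and 353 to 1177 TPM (1.74 ± 0.195 SE, adjusted p = 5.76e-06), and LHCB1.2 from 1096 and 1161 to 2992 TPM (1.41 ± 0.167 SE, adjusted p = 9.91e-06). At the other end stood PSAE2, with 1068 and 1126 TPM in caulineLeaf and 1135 in rosettaLeaf (0.05 ± 0.0942 SE, adjusted p = 0.657).

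In seedling against shoot, 37 of the 42 genes rose and none fell, beside a background of 25.0% higher and 38.6% lower. The median difference was 0.40, beside -0.11 over all genes. Under the rescaling 41 rose, with a median of 0.60 beside 0.04 (8002 genes higher and 5911 lower over all, in place of 5635 and 8691). The 3 largest rises were in antenna genes of photosystem II: LHCB1.1 went from 1171 and 1279.6 TPM in shoot to 2466 and 2256 in seedling (0.95 ± 0.154 SE, adjusted p = 0.000212), LHCB2.2 from 990.4 and 1044 to 2047 and 1848 (0.94 ± 0.127 SE, adjusted p = 5.17e-05) and LHCB3 from 1224 and 1289 to 2342 and 2172 (0.84 ± 0.0842 SE, adjusted p = 3.95e-06). The groups of columns did not overlap for any of these. PSBS (0.84) rose by nearly as much as LHCB3. LHCB1.3, the most abundant antenna gene of the set, rose by 0.34, below the median of the 42 genes. LHCB4.1, PSAE2, PSBR, PETE2 and FD2 did not pass the test. Whole seedlings include the root: CASP1, of the root endodermis, read 36.0 and 38.7 TPM in seedling and at most 1.64 in shoot, and the root aquaporin TIP2;3 read 68.4 and 62.0 and 0.416 and 2.32. The seed-storage genes were also higher in seedling, with CRU3 at 106 and 116 TPM against 8.83 and 11.3 in shoot. Their part in the comparison was not tested.

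In flower against caulineLeaf, 36 genes fell and 3 rose, beside a background of 34.0% lower and 47.3% higher. The median difference was -0.71, beside 0.17 over all genes. PSAD2, a ferredoxin-docking subunit of photosystem I, went from 1268 and 1349.7 TPM in caulineLeaf to 504 and 496 in flower (-1.39 ± 0.0924 SE, adjusted p = 3.51e-08). PSBO2 went from 1063 and 1129.9 to 448 and 459 TPM (-1.27 ± 0.096 SE, adjusted p = 1.13e-07) and PSBQ2, another protein of the water-splitting side, from 1708 and 1837 to 738 and 769 TPM (-1.23 ± 0.0465 SE, adjusted p = 1.78e-10). The 3 that rose were LHCB1.2 (0.33 ± 0.136 SE, adjusted p = 0.0434), FD2 (0.15 ± 0.0624 SE, adjusted p = 0.0405) and ATPD (0.15 ± 0.0414 SE, adjusted p = 0.00588). None of these 3 rises passed the test after the median-ratio rescaling. LHCB1.2 also lost its call under 15 further alternatives, with limma adjusted p-values over all of them between 0.000272 and 0.178, and FD2 under 8 further ones, between 0.00465 and 0.523.

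In silique against caulineLeaf, 36 genes fell and 3 rose again, beside a background of 35.9% lower and 46.6% higher. The median was -0.70, beside 0.15 over all genes. PSBQ2 went from 1708 and 1837 TPM in caulineLeaf to 647 and 663 in silique (-1.43 ± 0.0465 SE, adjusted p = 3.98e-11), PSAD2 from 1268 and 1349.7 to 505 and 488 (-1.40 ± 0.0924 SE, adjusted p = 3.01e-08) and PSAE2 from 1068 and 1126 to 437 and 437 (-1.32 ± 0.0769 SE, adjusted p = 8.6e-09). PSBS rose from 348 and 353 to 582 and 565 TPM (0.71 ± 0.159 SE, adjusted p = 0.00138), ATPD from 318 and 318 to 424 and 414 (0.40 ± 0.0414 SE, adjusted p = 2.2e-06) and FD2 from 846 and 891 to 1111 and 1095 (0.34 ± 0.0624 SE, adjusted p = 0.00027). LHCB1.1, LHCB1.2 and PETE2 did not pass the test. The 3 rises passed the test under the rescaling too. All 12 photosystem I genes fell in flower and in silique, by medians of -0.80 and -0.90.

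In stem against caulineLeaf, 19 genes fell and 1 rose, beside a background of 31.8% lower and 30.7% higher. The median difference was -0.16, beside -0.01 over all genes. Only 2 of the 14 antenna genes fell, against 9 of the 12 photosystem I genes, and this difference was not tested. PSBQ2 went from 1708 and 1837 to 1176 and 1163 TPM (-0.60 ± 0.0465 SE, adjusted p = 3.22e-07), PSAE2 from 1068 and 1126 to 845 and 854 (-0.37 ± 0.0769 SE, adjusted p = 0.00126) and PSAO from 1963 and 2074 to 1605 and 1585 (-0.34 ± 0.0567 SE, adjusted p = 0.000243). ATPD rose from 318 and 318 to 367 and 384 TPM (0.24 ± 0.0414 SE, adjusted p = 0.000314). The count rested on single columns: 9 genes were called without caulineLeaf replicate 2, 11 without stem replicate 1 and 12 without stem replicate 2.

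**Figure D2:**
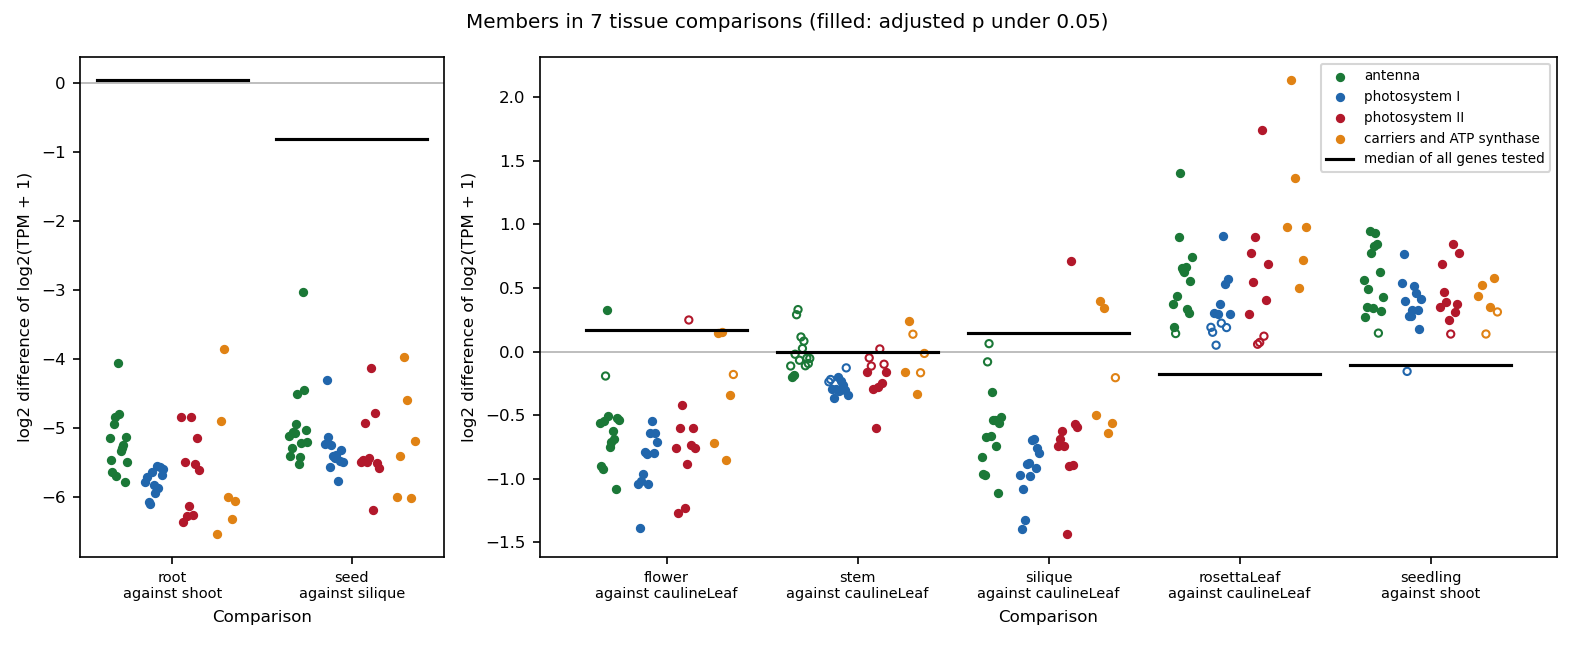
Difference of log2(TPM + 1) for each of the 42 genes (points, coloured by group) in the 7 tissue comparisons, filled where the adjusted p was under 0.05, with the median of all genes tested as a black line. All points of root against shoot and seed against silique lie at or below -3.03, and the points of rosettaLeaf against caulineLeaf lie above 0.

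Most related genes outside the set were also lower in root. Of 18 further genes of thylakoid complexes, 17 fell in root against shoot and none rose, from -6.35 for FNR2, a leaf ferredoxin-NADP reductase, to 0.02 for ATPC2, the second gamma-subunit gene of the chloroplast ATP synthase, which did not pass the test. ATPC2 read 11.7 and 14.1 TPM in shoot and 12.5 and 13.6 in root, where ATPC1 had the largest fall of the set. All 10 genes of chlorophyll synthesis fell, from -6.02 for CHLH (a subunit of magnesium chelatase) to -1.03 for HEMA1 (glutamyl-tRNA reductase). Among 3 regulators, GLK1, which promotes chloroplast development, showed the largest fall (-6.19), and HY5, a factor of light responses, rose by 0.92. Of the 3 root-type redox genes, 2 rose, RFNR2 (a root-type ferredoxin-NADP reductase) most with 3.07, while RFNR1 fell, with -0.31. In stem against caulineLeaf all 10 chlorophyll-synthesis genes rose, by a median of 0.49, where the 42 genes had a median of -0.16.

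Several subunits are encoded by a pair of genes, and the ratio of the copies was compared among tissues. For 7 of 8 pairs the log2 ratio of (TPM + 1) differed among tissues in a permutation test of the F statistic. The test counted resamples with an F at or above the observed one (100000 resamples of the tissue labels over the 16 columns, p adjusted over 8 pairs). The exception was plastocyanin, where PETE2 was the higher copy throughout and the PETE1 to PETE2 ratio did not pass the permutation test (p = 0.245). Its replicate SD was 0.344, with log2 ratios of -2.04 and -3.27 in the root columns.

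The CP29 pair had the largest F statistic of the 8, at 167. LHCB4.1 exceeded LHCB4.2 1.11-fold in stem, 1.16-fold in caulineLeaf, 1.68-fold in shoot, 2.5-fold in root and 4.04-fold in seed (adjusted p = 8e-05, replicate SD 0.0542 on the log2 scale, permutation test). The manganese-stabilising pair parted in root: PSBO1 was 5.96-fold PSBO2 there, 2.88-fold in flower and 1.45-fold in rosettaLeaf (adjusted p = 0.00016, permutation test). In root, PSBO1 read 59.9 and 60.7 TPM and PSBO2 8.54 and 11.7.

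PSAD1 exceeded PSAD2 1.79-fold in shoot and 1.28-fold in stem, and in seed the ratio was 0.915 (adjusted p = 0.00016, permutation test). PSAE1 was 2.96-fold PSAE2 in seed and 1.54-fold in shoot, and PSAH1 stayed below PSAH2, from 0.431 of it in root to 0.72 in caulineLeaf. PSBQ1 stood at 0.612 of PSBQ2 in caulineLeaf, with the log2 ratios of both columns (-0.69 and -0.73) below those of all other columns, and at 1.1 in rosettaLeaf (adjusted p = 0.00273, permutation test). LHCB2.1 and LHCB2.2 were nearly level in the 7 green tissues, between 0.883 and 1.06, and LHCB2.1 was 1.47-fold LHCB2.2 in root. Their transcripts share between 7.28% and 7.43% of their 100-base windows, and the copies of the other 7 pairs share none.

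**Figure D3:**
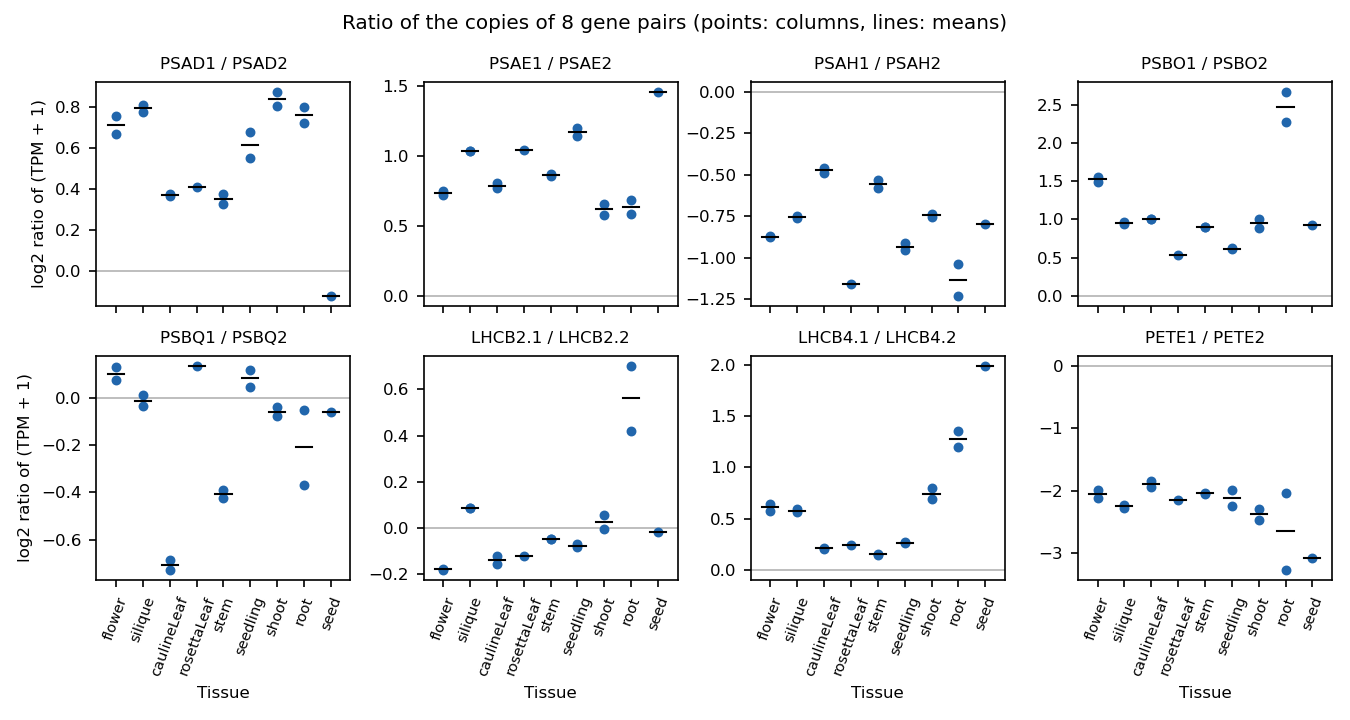
Log2 ratio of (TPM + 1) between the copies of 8 gene pairs in each tissue, with a point per expression column and a line at the tissue mean. The LHCB4.1 to LHCB4.2 ratio is highest in seed, the PSBO1 to PSBO2 ratio in root, and the PSBQ1 to PSBQ2 ratio is lowest in caulineLeaf.

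Pseudouridine, the isomer of uridine in which the base is joined to the sugar through carbon, is made by pseudouridine synthases. In BID-seq, bisulfite leaves an adduct on Ψ that reverse transcriptase skips, so that a modified site is read as a deletion. The gap ratio, calibrated to the modified fraction from 0 to 1, is the value used here, and a site is referred to as called in a tissue where it passed the filter of the authors. The replicates of a tissue were combined in these values and no depth comes with them. Differences in fraction are therefore given without error or test.

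Of the 42 genes, 39 held at least 1 listed site, and PSAD1, PSAD2 and PETE1 held none. The mean was 3.5 sites per gene, against 2.00 for the 667 other genes whose mean level was at or above that of the lowest of the 42. Of these 667 genes, 75.1% held a site. They share only the floor of 238 TPM with the set, whose mean levels reach 2392 TPM. The levels were thus not matched, and the part of coverage in the difference was not tested. Antenna genes held 87 of the 147 sites, photosystem II genes 32, photosystem I genes 19 and the carriers and ATP synthase 9. The 31 bases around 24 of the 147 sites, all in 7 antenna genes, occur more than once in the genome. A read within such bases cannot be assigned to a copy, so these counts may hold the same reads more than once. LHCB1.3 and LHCB4.1 led with 11 sites each. By the transcript with the longest coding sequence in RefSeq, 125 sites fell in coding sequence, 6 in the 3′-UTR, 5 in the 5′-UTR and 11 in introns. Coding sequence thus held 91.9% of the exonic sites and 60.7% of the exonic bases of these genes.

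Called in at least 1 tissue were 108 of the 147 sites, whereas 97.3% of the whole list were. The 39 sites without a call made up 26.5% of the sites in these genes, against 2.69% of the list. By tissue, the sites called were 60 in flower (background 29.4%), 38 in silique (background 19.5%), 64 in caulineLeaf (background 18.8%), 78 in rosettaLeaf (background 19.7%), 59 in stem (background 23.9%), 77 in seedling (background 26.0%), 50 in shoot (background 22.7%), 7 in root (31.9%) and 1 in seed (18.2%). As shares these were 53.1% of the sites in rosettaLeaf, the highest, 25.9% in silique, the lowest of the green tissues, 4.76% in root and 0.68% in seed. The median level of the 42 genes was 2412 TPM in rosettaLeaf, 27.3 in root and 26.1 in seed, and the part of coverage in these counts was not tested.

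The called fractions in these genes were low in the green tissues. Over 434 calls the median was 0.0624, against 0.168 over the 17878 calls of the list, and 73.7% of the calls lay below 0.1, against 25.8% in the list. In root, where the genes were weakly expressed, the median of the 7 calls was 0.192, against 0.159 in the list. The 1 call in seed was at 0.214, beside a list median of 0.198. The list was not matched for level, and the part of coverage in the difference was not tested. Only 11 calls exceeded 0.5, and all 11 were in introns. At 6 sites the value listed beside a call was exactly 0 in at least 1 tissue. Among them, LHCA3 base 65 and LHCB1.3 base 60 adjoin a listed U with higher fractions, and the others do not. Over the green tissues LHCA3 base 66 ranged from 0.0408 to 0.178 and LHCB1.3 base 61 from 0.0868 to 0.169. Whether adjoining sites count the same deletions was not tested.

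The water-splitting protein genes PSBO1 and PSBO2 held the site that recurred most widely, and their sequences are shown because the 21 bases around it are nearly the same. PSBO1 carries it at chr5:26568969, plus strand, coding base 226, and PSBO2 at chr3:18892089, minus strand, coding base 223. Capitals mark the 7-base motif centred on the modified U, written as T.
PSBO1: tcttgccACCTCTGctctcgt
PSBO2: tctagccACCTCTGctctcgt

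The windows differ by T4A alone, counted from 1 at the 5′ end of the 21 bases with PSBO1 first. In PSBO1 the fraction was 0.205 in flower, 0.211 in silique, 0.231 in caulineLeaf, 0.193 in rosettaLeaf, 0.204 in stem, 0.209 in seedling, 0.189 in shoot, 0.195 in root and 0.214 in seed. It was the only one of the 147 sites called in all 9 tissues, as 122 sites of the list were, and the only one called in seed. In PSBO2 the fraction ranged from 0.0425 to 0.0689 over the 9 tissues, with a call in 1 of them. The ranges of the copies did not overlap.

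A site in the antenna genes allows a like comparison among copies. It lies at coding base 323 of each LHCB1 gene and at base 314 of LHCA4, with the same 7 bases and, between LHCB1.2 and LHCA4, the same 14 bases up to the end of the motif.
LHCB1.2: tgggctaTGCTCGGagcccta
LHCB1.1: tgggccaTGCTCGGagcccta
LHCB1.3: tgggccaTGCTCGGagcccta
LHCA4: tgggctaTGCTCGGtgtcgct

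LHCB1.2 differs from LHCB1.1 and LHCB1.3 by T6C. Over the 7 green tissues its fraction ranged from 0.169 to 0.213, against 0.0888 to 0.149 in LHCB1.1, 0.108 to 0.136 in LHCB1.3 and 0.0502 to 0.0843 in LHCA4. LHCB1.2 was the highest of the 4 in each green tissue. It was called in all 7 of them, as was LHCB1.3, while LHCB1.1 was called in 6 and LHCA4 in none. The 31 bases around the LHCB1.1 and LHCB1.3 sites occur in both genes and therefore 2 times in the genome, and those of LHCB1.2 and LHCA4 only 1 time.

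The spread among tissues was described at the 24 sites called in all 7 green tissues, 23 of them in coding sequence. At these the ratio of the highest to the lowest fraction had a median of 1.41 and exceeded 2 at 2 sites, apart from an LHCB1.3 site listed at 0 in some tissues. Sites called in fewer tissues reached wider ratios, such as 18.6 at PSBP1 base 58 and 9.55 at LHCB1.2 base 681, and the 24 do not stand for them. The first of the 2 was LHCA1 at coding base 27 (chr3:20340896, minus strand), which is shown for its order among tissues.
LHCA1: ttatgagCTGTGGCatagccg

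Its fraction was 0.241 in shoot and 0.192 in root, the plants of 14 days, against 0.0993 in flower, 0.0935 in seedling, 0.0794 in silique, 0.05 in rosettaLeaf, 0.0462 in caulineLeaf and 0.0461 in stem. It was called in all of these. In seed the listed value was 0.124, without a call and above those of flower and seedling. The second was PETC, the Rieske protein of cytochrome b6f, at coding base 590, with 0.149 in flower and 0.0727 in shoot. It lies 4 bases from an exon edge, and the part of read alignment at the splice junction in its values was not tested. A site shared by the 3 LHCB1 genes at coding base 681 had a like spread, called in 3 or 4 tissues: in flower it read 0.202, 0.163 and 0.194 in LHCB1.1, LHCB1.2 and LHCB1.3, in shoot 0.163, 0.152 and 0.22, and in rosettaLeaf 0.0304, 0.017 and 0.0438. The 31 bases around it occur 4 times in the genome, so a read within these bases cannot be assigned to a copy.

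**Figure D4:**
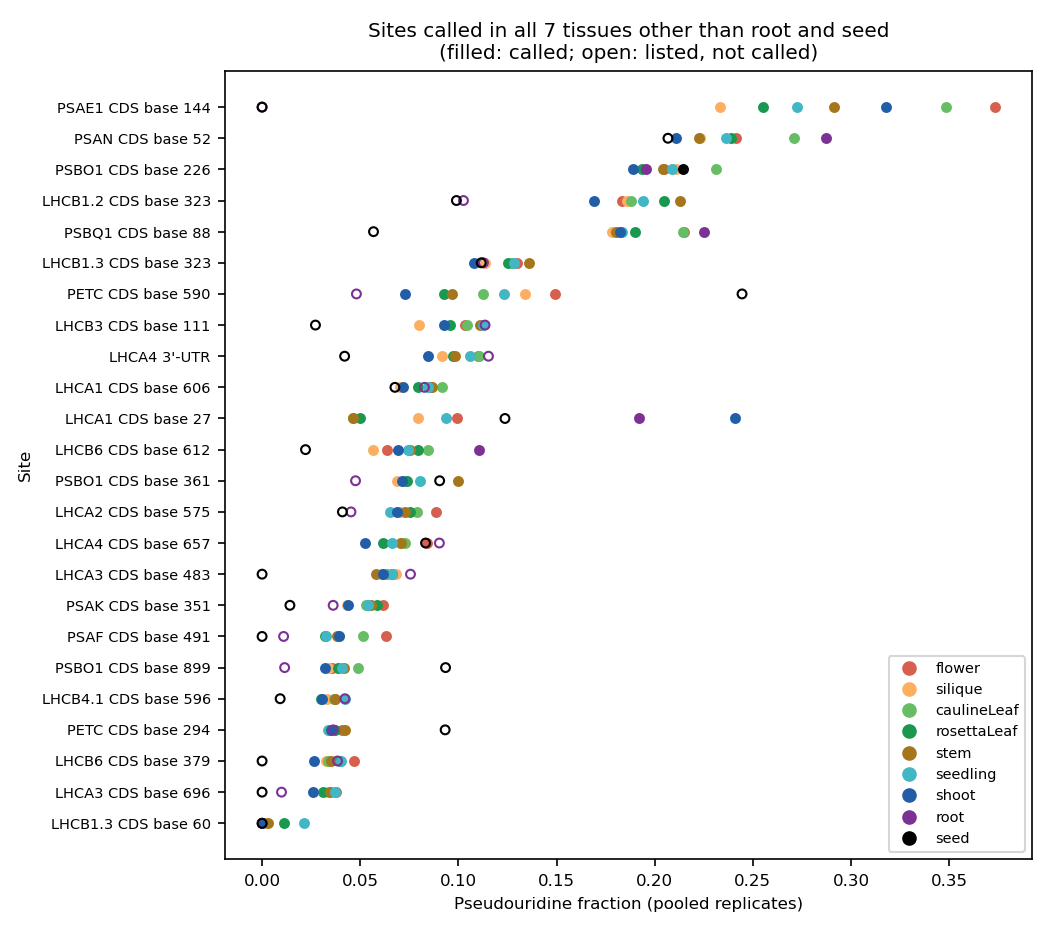
Ψ fraction, from pooled replicates, at the 24 sites called in all 7 tissues other than root and seed (rows, named by gene and base of the coding sequence), with a point per tissue, filled where called. LHCA1 base 27 stretches to 0.241 in shoot, and PSAE1 base 144 reaches 0.374 in flower.

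The highest fractions in coding sequence belonged to PSAE1 (a stromal subunit of photosystem I) and PSBS. PSAE1 at coding base 144 ranged from 0.233 to 0.374 over the 7 green tissues and was called in each of them, and PSBS at base 474 from 0.161 to 0.341 with calls in 3. PSAN and PSBQ1, lumenal proteins of photosystem I and II, were called in 8 tissues each, at 0.211 to 0.287 and 0.178 to 0.225. Both carry the motif GGCTCTG, which 6 of the 147 sites and 4.26% of the list share. The 6 windows are shown because the same 7 bases came with different fractions.
PSAN: aattgctGGCTCTGgctcggt
PSBQ1: tctgaatGGCTCTGgaagagt
LHCA3: tcgagatGGCTCTGatgggat
PSAH1: cgtatacGGCTCTGatgctcc
PSBO1: tgacggtGGCTCTGagacttt
PSBO2: cgatggtGGCTCTGagacatt

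At the other 4 sites the fraction over the green tissues was 0.0579 to 0.0682 in LHCA3, 0.0579 to 0.0787 in PSAH1, 0.0686 to 0.1 in PSBO1 and 0.0514 to 0.0877 in PSBO2, all below the ranges of PSAN and PSBQ1.

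The commonest motifs among these genes were GGCTATG and TGATCGG, with 8 sites each. GGCTATG occurred at 8 sites in 8 antenna genes (LHCA3, LHCA4, LHCB1.1, LHCB1.3, LHCB2.1, LHCB2.2, LHCB3 and LHCB5), 5.44% of the 147 sites and 0.975% of the list. TGATCGG occurred in LHCA2, LHCB4.1, LHCB4.2, PSAO, PSBO1 and PSBO2, with 2 sites in each CP29 gene, and made up 2.09% of the list. The modified base was the third of its codon at all 8 GGCTATG sites and the middle one at all 8 TGATCGG sites. The antenna proteins share ancestry, so the GGCTATG sites are not independent of each other. The 31 bases around the LHCB1.1, LHCB1.3 and LHCB3 sites occur 4 times in the genome, and those of LHCB2.1 and LHCB2.2 2 times. A read within these bases cannot be assigned to a copy, so the count of GGCTATG sites may hold the same reads more than once. An example of each motif from an antenna gene and of the latter from PSBO1 is shown.
LHCB3: gaagattGGCTATGttctcta
LHCB4.1: gtgttagTGATCGGctacatc
PSBO1: ggagaggTGATCGGagtgttc

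Both motifs carried low fractions, from 0.00601 to 0.0377 at GGCTATG and from 0.0148 to 0.0507 at TGATCGG over the green tissues.

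The 11 intron sites had a median called fraction of 0.578, over 17 calls at 10 sites, against 0.0563 in coding sequence. Not all were high: the LHCA3 site was not called and reached 0.0702, and an LHCB5 site reached 0.116. Of the 11, 9 lay within 7 bases of an exon edge and 4 at the second base of the intron, whereas 2 of the 90 coding sites in genes with introns, in LHCA4 and PETC, lay within 7 bases. Only the LHCA3 site falls in an exon of another RefSeq transcript. The 2 sites farther inside are the copies in LHCB2.1 and LHCB2.2, 23 and 29 bases from an exon, and are shown with 3 of those at an edge.
LHCB2.1: atatgtcTAATCACcaaattc
LHCB2.2: atctgtcTAATCACcaaatgc
PSAE2: ttttgagGACTTACaggtcaa
PSAE1: attgttgGGATTCGtaggtca
PSAH1: tcgttacTTGTAGAgcaagtt

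The fraction over the green tissues ranged from 0.201 to 0.643 in LHCB2.1, 0.488 to 0.649 in LHCB2.2, 0.646 to 0.812 in PSAE2, 0.567 to 0.77 in PSAE1 and 0.616 to 0.721 in PSAH1. The sites shown were called in 1 to 4 tissues. Other called intron sites were not steadily high over the green tissues. The fraction ran from 0 to 0.704 in PSBO1, 0 to 0.372 in LHCA2, 0 to 0.384 at the other LHCB5 site and 0.123 to 0.585 in PSAN. No seed value was listed for 7 of the 11 sites. Spliced mRNA lacks these bases, and the part of read alignment at splice junctions in these values was not tested.

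**Figure D5:**
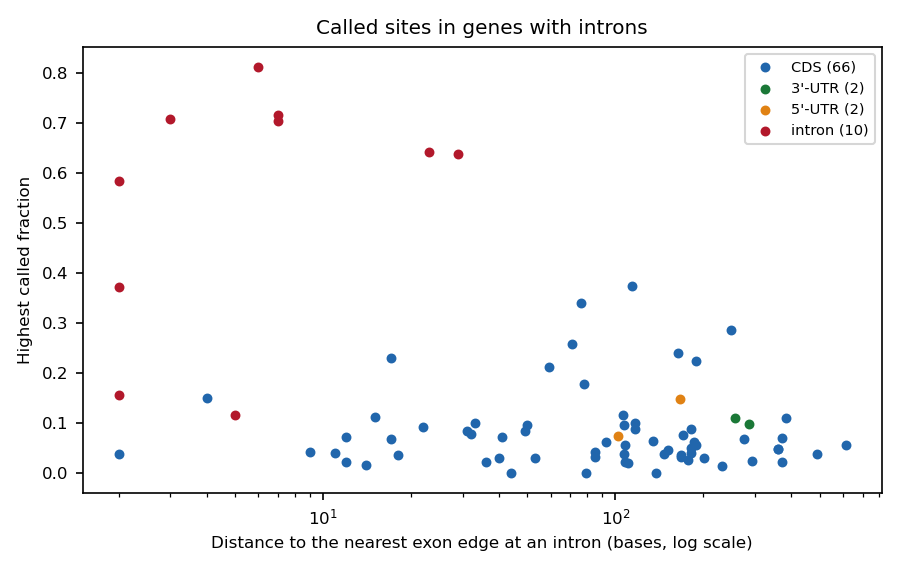
Highest called Ψ fraction of each of the 80 called sites in genes with introns against the distance to the nearest exon edge at an intron (bases, log scale), coloured by region. Of the 10 called intron sites 8 lie above 0.35, and 1 exonic site does.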

How the data were processed

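The authors prepared poly(A)+ RNA libraries by BID-seq and deposited 2 kinds of table: expression in TPM per gene and column, and Ψ sites with a fraction per tissue. The TPM values of the authors have the same total in every column, and the counter and annotation behind them are not given in the sources used here. The expression columns name the tissue and replicate but not the library, and were taken as the input libraries because their number per tissue is the same. The most frequent step of TPM times length corresponds to between 11.0 and 19.7 M reads per column, if that step is 1 read, although only 30.2% to 56.8% of values under 200 steps were whole within 0.05. The deposited Ψ fraction (0 to 1) comes from replicates combined by the authors on TAIR10, with a flag for their P value-based filter, whose threshold is not given in the sources used here, and with no depth. Its precision is therefore unknown.

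From these values, log2(TPM + 1) of the 22517 genes with a mean of at least 1 TPM was fitted with limma 3.58.1 (R 4.3.3) over 9 tissues, with a variance trend, 7 residual degrees of freedom and Benjamini-Hochberg adjusted p-values under 0.05 called. The rescaling divided each column by its median ratio over genes with a mean of at least 10 TPM. Copy ratios used a permutation test of F (100000 resamples). Sites were placed by RefSeq transcripts of the TAIR10 build with Biopython 1.88, pandas 2.3.3 and numpy 2.4.6 under Python 3.11.15, and the figures were drawn with matplotlib 3.10.9. The limma fit was tested on simulated data. Values per column were given for up to 3 called genes with the largest rise and 3 with the largest fall in each comparison, for gene pairs and for genes with sites, and further genes of the set were described after their values were seen. The 42 genes, the lists and the tests were chosen with earlier results of these data known. Alternatives were another pseudocount, other filters, the rescaling, no trend, a replicate block, 7 tissues only and each column left out.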

Additional observations from a re-analysis of the deposited data

How the results depend on the processing

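Of 326 summary values recomputed under the alternatives, 315 kept their direction and size class, 11 moved and none reversed. Many of the medians could not move. Leaving out a column of a tissue outside a comparison, or the trend, leaves the median difference of that comparison as it was. The 315 are therefore not that many separate checks. Under the median-ratio rescaling the median log2 difference of the 42 genes was -5.50 in root against shoot, -4.35 in seed against silique, -0.81 in flower against caulineLeaf, 0.86 in rosettaLeaf against caulineLeaf and 0.60 in seedling against shoot, as it also moved the median of all genes. Leaving out a column gave between 9 and 27 genes called in stem against caulineLeaf, 36 to 42 in flower and 39 to 40 in silique against caulineLeaf, 31 to 37 in rosettaLeaf against caulineLeaf and 31 to 40 in seedling against shoot. The 42 calls each in root and seed were kept in number, and the root median ranged from -5.67 to -5.47. In each comparison whose count varied, the highest count came from leaving out a root column, which lies outside that comparison. Of the 108 called sites, 65 had a called fraction of at least 0.05 and 36 of at least 0.1. Of 598 values for the named genes and the ratios of the 8 gene pairs, 572 kept their result, called or not, and 26 lost a call. All 26 were in flower against caulineLeaf, for LHCB1.2, FD2 and ATPD, and the cause was not tested. With the replicate number as a block, 24 genes were called in stem against caulineLeaf (3 higher and 21 lower), 34 in rosettaLeaf against caulineLeaf and 38 in seedling against shoot, and the other counts stayed at 42, 42, 39 and 39. The 21 correlations of deviations between tissues ran from -0.10 to 0.12, with 2 over 0.1, so the numbers do not pair the columns. Rosette leaf and seed have 1 column each, and the Ψ fractions have no depth or replicate error, which limits every statement on them.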
